A study of Rattus norvegicus with 24 samples.

Results

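Genes that mark blood vessel endothelium in the intact liver were followed in cultures of primary rat hepatocytes. The 8 genes were Clec14a, Rbp7 and S1pr1, chosen because these same arrays showed them higher in sandwich than in monolayer cultures at days 2, 3 or 8, and the classical endothelial markers Pecam1, Cdh5, Kdr, Tek and Eng. Of the 8, 7 had at least 1 probe set carrying their symbol alone, 9 probe sets in all among the 31042 tested, and these 7 were part of the 14217 genes read. No probe set carried the symbol of Cdh5 alone, so the endothelial cadherin has no value here. S1pr1 and Kdr each had 2 probe sets and were read by the one with the higher mean over the 24 arrays, with the other given beside it. Because Clec14a, Rbp7 and S1pr1 were chosen on these values, their levels after day 1 and their changes over time are a description without a test. Day 1 is the start of their rise, so the day 1 tests of these genes are not independent of the choice either.

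The hepatocytes were plated on collagen gel in medium with serum, epidermal growth factor, insulin, glucagon and hydrocortisone, with daily medium changes. Sandwich cultures received a second layer of collagen a day after seeding, which makes 2 gel layers, and monolayer cultures stayed on 1 layer. Each culture was profiled on 3 Affymetrix arrays at each of days 1, 2, 3 and 8, counted in the labels from when the second layer was laid on, which gives 8 groups. The strain, sex and age of the rats are not given in the labels, and nothing says whether replicates were separate cultures or animals, so that p-values describe only the spread between these arrays. Levels are the log2 values of probe sets, and a difference is on the same log2 scale with the standard error (SE) of the fit. A difference was called at an adjusted p under 0.05 (limma, Benjamini-Hochberg over all probe sets). Gene lists below were counted by gene, while the shares beside them are over all probe sets, also those without a gene symbol. Of the 14217 genes, 1554 were called higher and 1675 lower in sandwich cultures at day 3. At day 8 these counts were 2215 and 2943. With 3 arrays against 3, groups without overlap are common. Every sandwich array lay above every monolayer array in 7.88%, 8.89%, 14.5% and 18.3% of all probe sets on days 1, 2, 3 and 8. The reverse held in 9.69%, 10.3%, 14.5% and 19.3%. The table has no detection calls, so a low level shows neither presence nor absence of a transcript, and levels of different probe sets were not set against each other.

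Hepatocyte markers were read on each array, with no reference to show which other cells the cultures held. The 11 measured hepatocyte markers had a mean level per array of 12.53 to 12.67 in sandwich and 11.41 to 11.77 in monolayer cultures at day 8. Of the 11, 8 passed the test as higher in sandwich cultures that day and 0 as lower, beside 11.9% and 15.6% of all probe sets. This count compares the cultures and is not a check of the cell type. Medians of the 24 arrays ran between 5.57 and 5.67. The gap between the 3' and 5' control probe sets of beta-actin, a sign of RNA quality, was 0.99 ± 0.11 in sandwich and 0.82 ± 0.04 in monolayer arrays (SD, n = 12 each), and that of GAPDH was 0.32 ± 0.10 and 0.27 ± 0.07. Its part in the results was not tested.

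Endothelial cells line vessels and, in the liver, form the fenestrated wall of the sinusoids that faces the hepatocytes. They are held together by PECAM1 and VE-cadherin and are kept alive and patterned by growth factor receptors such as KDR, which binds VEGF, and TEK, which binds angiopoietins. Endoglin, the product of Eng, is a co-receptor for ligands of the TGF-beta and BMP family. CLEC14A is a C-type lectin-like membrane protein of the group XIV family, RBP7 is an intracellular retinol-binding protein also found in fat tissue, and S1PR1 is a G protein-coupled receptor for the blood lipid sphingosine 1-phosphate, carried by lymphocytes as well as endothelium.

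The start sites of the 3 genes chosen for their rise are shown because all were higher in sandwich cultures at days 3 and 8. For S1pr1 at day 3 this holds for its brighter probe set, and Rbp7 was lower in sandwich cultures at day 1. RefSeq promoters on GRCr8, from 250 bases before to 50 after the start, were available for 5 of the 8 genes: these 3, Kdr and Eng. The Clec14a window lies at chr6:81619507-81619806, the Rbp7 window at chr5:165177350-165177649 and the S1pr1 window at chr2:206314021-206314320, all on the minus strand. They are written 5′ to 3′ in the direction of transcription, and capitals mark GGAA or its complement TTCC, the core recognised by ETS factors, a family with several endothelial regulators.
Clec14a: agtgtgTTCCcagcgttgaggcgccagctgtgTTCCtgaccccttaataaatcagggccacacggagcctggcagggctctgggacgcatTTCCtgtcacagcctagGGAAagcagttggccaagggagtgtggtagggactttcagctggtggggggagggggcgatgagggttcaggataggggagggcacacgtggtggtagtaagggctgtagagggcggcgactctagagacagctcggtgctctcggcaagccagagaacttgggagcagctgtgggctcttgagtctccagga
Rbp7: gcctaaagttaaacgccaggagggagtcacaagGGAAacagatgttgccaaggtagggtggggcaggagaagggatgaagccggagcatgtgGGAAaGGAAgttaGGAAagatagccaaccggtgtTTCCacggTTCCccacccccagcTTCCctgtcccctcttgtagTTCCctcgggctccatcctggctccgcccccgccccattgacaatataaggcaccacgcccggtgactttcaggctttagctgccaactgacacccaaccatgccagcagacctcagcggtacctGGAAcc
S1pr1: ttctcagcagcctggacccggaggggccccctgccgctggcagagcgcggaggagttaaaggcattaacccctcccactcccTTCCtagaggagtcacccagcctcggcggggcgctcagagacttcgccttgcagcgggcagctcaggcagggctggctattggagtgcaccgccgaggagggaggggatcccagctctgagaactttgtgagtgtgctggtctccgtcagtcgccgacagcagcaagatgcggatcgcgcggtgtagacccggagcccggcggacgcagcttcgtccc
The core occurs 4 times in the Clec14a window, 9 times in that of Rbp7 and once in that of S1pr1, and the windows of Kdr and Eng hold 5 and 3. Of 33469 promoter windows of the same length, 95.8% hold it on either strand, with a median of 3, so that its presence does not set these genes apart. The E-box CANNTG (both strands, in 72.1% of all windows) occurs 5 times in the Clec14a window, 3 times in that of Rbp7, 2 times in that of Eng, and 0 times in those of S1pr1 and Kdr. The GC box GGGCGG (33.1% of windows) occurs once for Clec14a, 2 times for Rbp7 and once for Kdr, and 0 times for S1pr1 and Eng. The nuclear receptor element AGGTCA is found on either strand in 16.2% of all windows, the TATA box TATAAA in 14.2%, the forkhead element TGTTTAC in 3.78% and the AP-1 element TGACTCA in 4.63%, and none of the 4 is found in the 5 windows. These are matches of letters only.

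Clec14a, the lectin, was at the same low level in both cultures at first and separated from day 3. At day 1 it measured 3.10, 3.13 and 3.31 in sandwich and 2.99, 3.13 and 3.03 in monolayer cultures. At day 2 it measured 4.07, 3.47 and 3.45 in sandwich and 3.34, 3.41 and 3.25 in monolayer cultures. The cultures overlapped at day 1 and were parted by a narrow margin at day 2, where 1 of the sandwich arrays stood above the other 2. At day 3 the sandwich arrays measured 6.22, 6.03 and 4.99, and the monolayer arrays 3.55, 3.29 and 3.45. At day 8 they measured 7.99, 7.72 and 6.82 in sandwich and 3.47, 3.55 and 3.31 in monolayer cultures. The groups were far apart on both days, and replicate 3 was the lowest sandwich array each time. The day 1 difference, sandwich minus monolayer, was 0.13 ± 0.24 (SE, limma adjusted p = 0.9, 95% interval -0.37 to 0.64). It was 0.33, 2.32 and 4.07 on days 2, 3 and 8, with the same SE.

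Almost all of the time course of Clec14a lay in the sandwich cultures. Day 8 stood 4.33 above day 1 in sandwich cultures and 0.39 above it in monolayer cultures (SE 0.24), and the change differed between the cultures by 3.94 ± 0.35. Within sandwich cultures the step was 2.08 between days 2 and 3 and 1.76 between days 3 and 8. In the order of the 8 group means the sandwich groups of days 8, 3 and 2 came first. Among neighbours in that order, day 8 and day 3 and then day 3 and day 2 of the sandwich cultures had arrays that did not overlap, and no other neighbours did. In sandwich cultures, day 8 lay wholly above day 3 in 10.7% of all probe sets, and day 3 above day 2 in 8.58%. In a bulk culture, more cells of a type and more RNA per cell cannot be told apart, here and for every gene below.

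**Figure D1:**
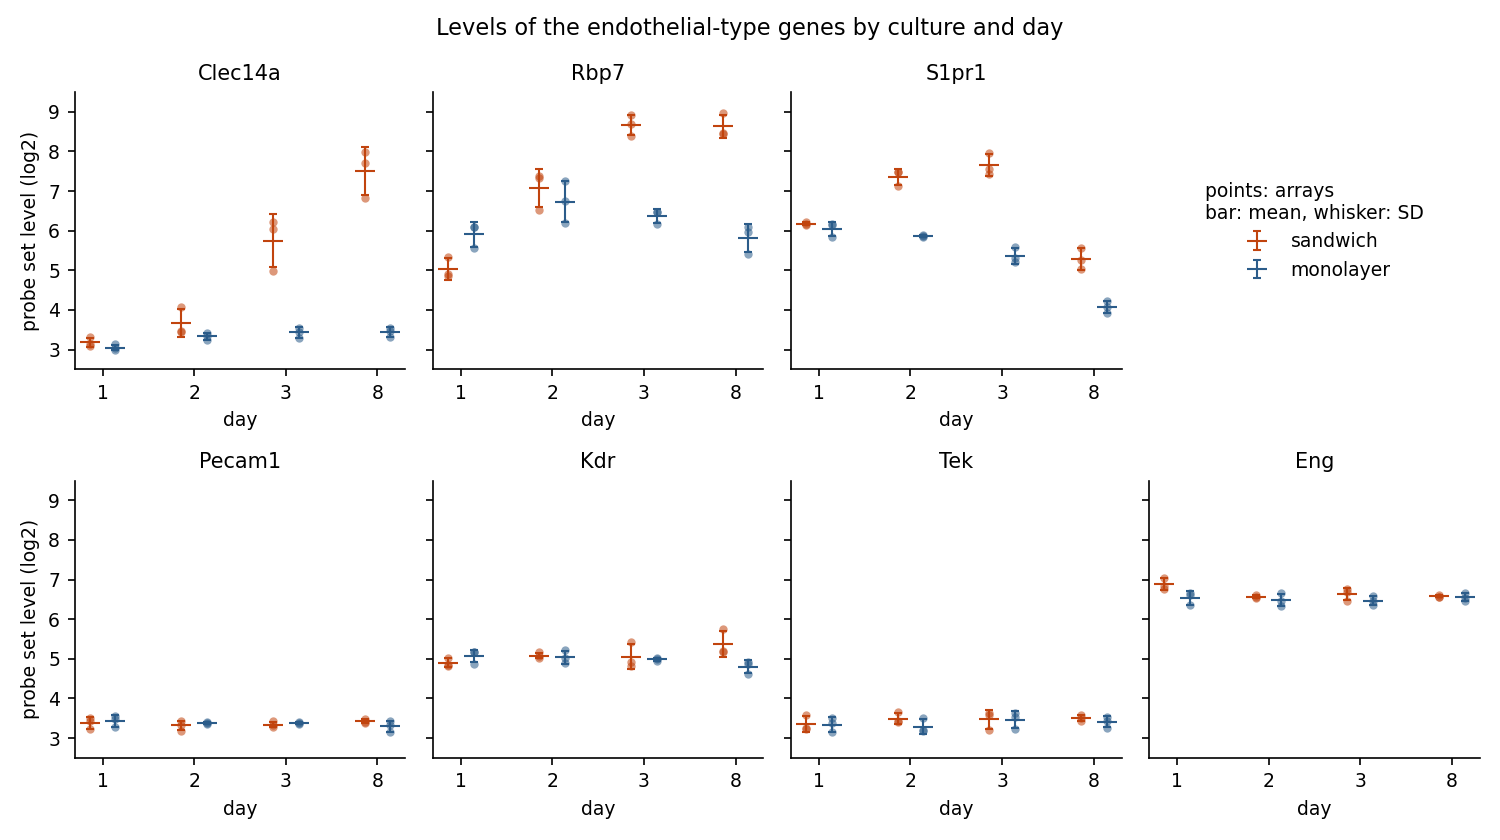
Log2 probe set levels (vertical axis) of the 7 measured genes by day (horizontal axis), sandwich left of monolayer; points are arrays, the horizontal bar is the mean and the whisker the SD of 3 arrays. Clec14a, Rbp7 and S1pr1 in the top row separate between the cultures, with 3 different shapes over time, and the bottom row stays within 0.57 between its highest and lowest group means.

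Rbp7, the retinol-binding protein, began lower in sandwich cultures and ended higher. At day 1 it measured 5.34, 4.86 and 4.90 in sandwich and 6.10, 6.08 and 5.55 in monolayer cultures. All 3 sandwich arrays lay below all 3 monolayer arrays, as in 9.69% of all probe sets. The difference was -0.88 ± 0.24 (SE, 95% interval -1.39 to -0.38) and did not pass over all probe sets (limma adjusted p = 0.0667), against 1.78% of all probe sets called at day 1 in either direction. Under 17 alternative settings the adjusted p ran between 0.0113 and 0.468, and 4 of them called it. These p-values are not independent of the choice of the gene, since a low sandwich level at day 1 favours a rise.

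By day 2 the cultures overlapped in Rbp7, at 7.37, 6.53 and 7.34 in sandwich and 6.75, 7.25 and 6.20 in monolayer cultures. The day 2 difference of 0.35 rested on single arrays, since it was -0.05 without replicate 3 of both cultures and 0.88 without replicate 2. The level was then 8.91, 8.69 and 8.40 in sandwich and 6.48, 6.47 and 6.16 in monolayer cultures at day 3. At day 8 it was 8.97, 8.46 and 8.45 in sandwich and 5.97, 6.08 and 5.41 in monolayer cultures. The sandwich arrays lay above all monolayer arrays on both days, by 2.30 at day 3 and 2.81 at day 8 (SE 0.24). Unlike that of Clec14a, the sandwich level reached a plateau, with day 8 minus day 3 at -0.04. Day 8 stood 3.60 above day 1 in sandwich cultures and the monolayer difference was -0.09, a difference between the changes of 3.69 ± 0.34. In the order of group means, sandwich day 8 lay clear of sandwich day 2, monolayer day 3 of monolayer day 1, and monolayer day 8 of sandwich day 1, which was the lowest group. Monolayer day 3 lay wholly above monolayer day 1 in 17.2% of all probe sets, and the shares for the other pairs are not given.

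S1pr1, the sphingosine 1-phosphate receptor, stood over 1 log2 unit higher in sandwich cultures by day 2, and its level was lower again at day 8 in both cultures. At day 1 it measured 6.15, 6.17 and 6.22 in sandwich and 6.15, 5.84 and 6.17 in monolayer cultures, a difference of 0.13 ± 0.14 (SE, limma adjusted p = 0.815, 95% interval -0.17 to 0.42). At day 2 it measured 7.47, 7.13 and 7.48 in sandwich and 5.85, 5.88 and 5.86 in monolayer cultures. The arrays of the cultures overlapped at day 1 and stood well apart at day 2. At day 3 the values were 7.56, 7.97 and 7.43 in sandwich and 5.30, 5.21 and 5.58 in monolayer cultures. At day 8 they were 5.26, 5.57 and 5.02 in sandwich and 3.92, 4.23 and 4.07 in monolayer cultures. Every sandwich array lay above every monolayer array on these days too, 1.50, 2.29 and 1.21 higher on days 2, 3 and 8 (SE 0.14).

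The day 8 gap of S1pr1 was therefore one between levels that both lay below day 1. Day 8 minus day 1 was -0.90 in sandwich and -1.98 in monolayer cultures, and day 8 minus day 3 in sandwich cultures was -2.37. Among neighbours in the order of group means, sandwich day 2 lay clear of sandwich day 1, monolayer day 2 of monolayer day 3, and sandwich day 8 of monolayer day 8. The same separations were found in 9.91%, 9.89% and 18.3% of all probe sets.

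The description of S1pr1 holds for 1 of its 2 probe sets. The other ranged over 3.63 to 4.14 on all 24 arrays, with differences between the cultures of 0.06, 0.23, 0.04 and 0.18 at days 1, 2, 3 and 8 (SE 0.10). With the gene read by the mean of both, the differences were 0.87, 1.16 and 0.69 on days 2, 3 and 8. Which transcripts each probe set reads was not tested.

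**Figure D2:**
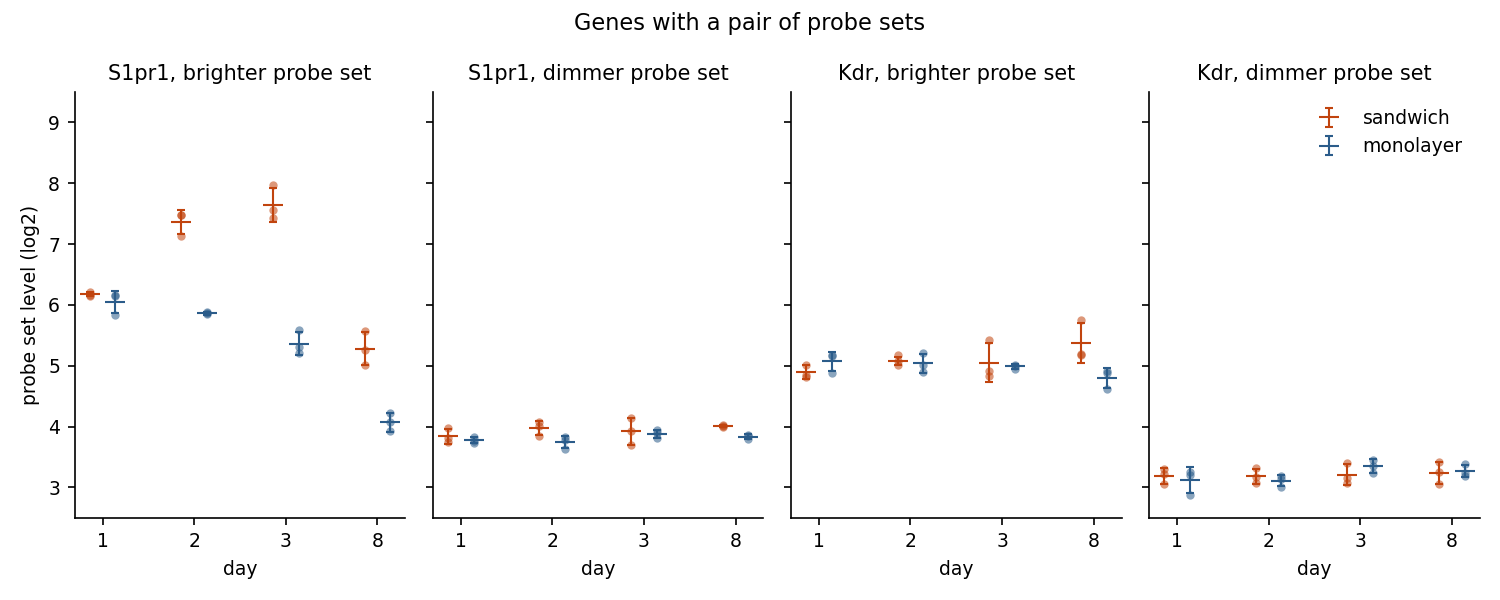
Log2 levels (vertical axis) by day (horizontal axis) for both probe sets of S1pr1 and of Kdr, sandwich left of monolayer; points are arrays, bars are means and whiskers SD of 3 arrays. The brighter S1pr1 probe set spans 3.58 over the group means and the dimmer one 0.26; for Kdr the spans are 0.57 and 0.24.

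The classical markers showed little of this. Over the 4 with a probe set, 0 passed limma between the cultures at days 1, 2 and 3, and 1, Kdr, was higher in sandwich cultures at day 8. At an unadjusted p under 0.05 (share of all probe sets not given), the counts on days 1, 2 and 3 were 1 (Eng), 0 and 0. Their median difference at day 8 was 0.11, against 0.00 over all genes. Of all probe sets, 1.78%, 5.83%, 16.5% and 27.5% were called on days 1, 2, 3 and 8.

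Pecam1, an adhesion molecule of endothelial junctions also carried by platelets and leukocytes, was the flattest of the 7. Its 24 arrays lay between 3.16 and 3.56. At day 8 it measured 3.47, 3.38 and 3.40 in sandwich and 3.33, 3.16 and 3.42 in monolayer cultures, overlapping groups with a difference of 0.11 ± 0.09 (SE, limma adjusted p = 0.433, 95% interval -0.08 to 0.31). The differences at days 1, 2 and 3 were -0.06, -0.07 and -0.04, and the groups overlapped on each day.

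Tek, the angiopoietin receptor, lay between 3.15 and 3.65 on all arrays. At day 8 it measured 3.51, 3.43 and 3.57 in sandwich and 3.26, 3.43 and 3.53 in monolayer cultures, again overlapping. The day 8 difference was 0.10 ± 0.13 (SE, limma adjusted p = 0.663, 95% interval -0.18 to 0.38), and those at days 1, 2 and 3 were 0.01, 0.20 and 0.01.

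Eng, the co-receptor, showed its widest gap at day 1, when Rbp7 was on the other side. At day 1 it measured 6.75, 6.84 and 7.05 in sandwich and 6.36, 6.61 and 6.67 in monolayer cultures. The sandwich arrays all lay above the monolayer arrays, as in 7.88% of all probe sets. The difference of 0.34 ± 0.10 (SE, 95% interval 0.12 to 0.55) did not pass over all probe sets (limma adjusted p = 0.122, 0.041 to 0.629 over 17 alternatives, of which 1 called it). At day 8 it measured 6.56, 6.57 and 6.61 in sandwich and 6.45, 6.54 and 6.67 in monolayer cultures, a difference of 0.02 (95% interval -0.19 to 0.24). Eng fell by 0.30 ± 0.10 at day 8 against day 1 in sandwich cultures (SE, limma adjusted p = 0.0347), a comparison in which 24.8% of all probe sets were called. That call was lost in 8 of 9 fits that left out arrays, where the difference ran between -0.37 and -0.22.

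Kdr, the main VEGF receptor of endothelium, was the classical marker that passed at day 8. It measured 5.75, 5.19 and 5.17 in sandwich and 4.91, 4.88 and 4.62 in monolayer cultures, with sandwich replicate 1 highest. Every sandwich array lay above every monolayer array, as in 18.3% of all probe sets. The difference was 0.57 ± 0.14 (SE, limma adjusted p = 0.00368, 95% interval 0.27 to 0.87). Without sandwich replicate 1 it was 0.38 with an adjusted p of 0.0489, and over all 16 alternatives the adjusted p ran between 0.00235 and 0.0489. At days 1, 2 and 3 the differences were -0.17, 0.04 and 0.06, and the groups overlapped.

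In sandwich cultures Kdr rose by 0.47 at day 8 against day 1 (limma adjusted p = 0.0164), where 24.8% of all probe sets were called. That call was lost in 4 of 9 fits that left out arrays, where the difference ran between 0.25 and 0.63. In monolayer cultures the Kdr difference was -0.27 (adjusted p = 0.183). The change differed between the cultures by 0.74 ± 0.20 (SE, limma adjusted p = 0.0122), a test that called 15.6% of all probe sets. The adjusted p of that difference was 0.0974 without replicate 1 of every group and 0.11 without replicate 3. The second Kdr probe set lay between 2.88 and 3.45, with a day 8 difference of -0.04 (95% interval -0.28 to 0.20). Its day 8 minus day 1 difference in sandwich cultures was 0.04. With the mean of both probe sets the difference between the changes was 0.31 and not called.

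**Figure D3:**
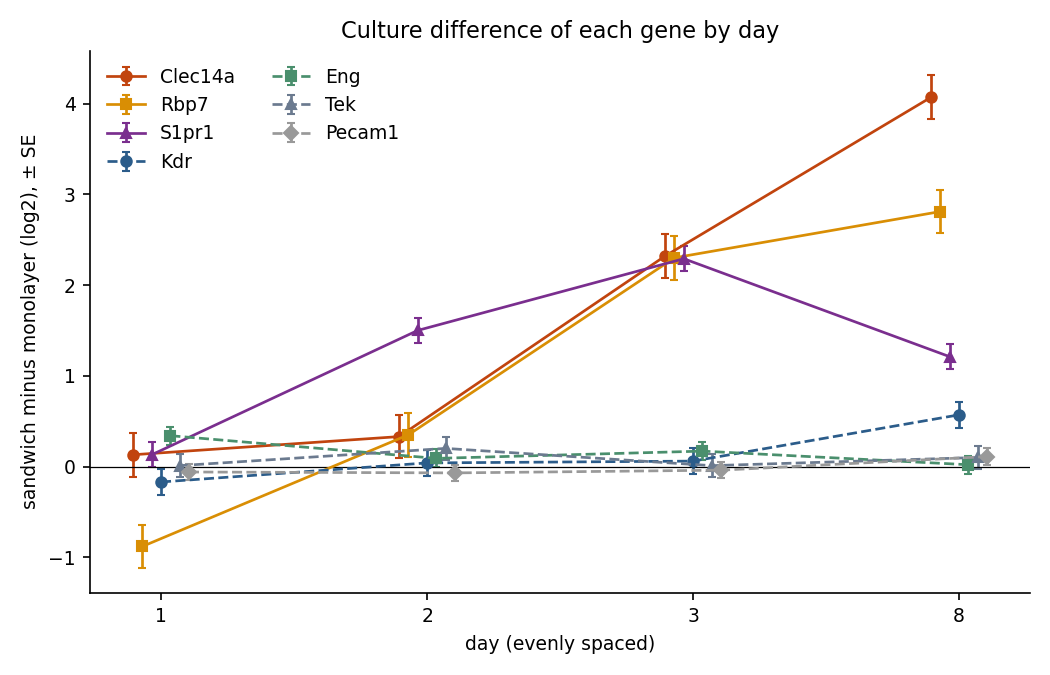
Sandwich minus monolayer (vertical axis, log2) by day (horizontal axis, evenly spaced) for the 7 measured genes, with the SE of the fit; solid lines are the 3 genes chosen for their rise and dashed lines the classical markers. At day 8 Clec14a stands at 4.07, Rbp7 at 2.81, S1pr1 at 1.21 and Kdr at 0.57, with Eng, Tek and Pecam1 at 0.02 to 0.11.

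Over the 8 groups, the spread between the highest and lowest group means was 4.46 for Clec14a, 3.64 for Rbp7 and 3.58 for S1pr1. It was 0.57 for Kdr, 0.41 for Eng, 0.21 for Tek and 0.14 for Pecam1. The median over all genes was 0.43. A smaller spread than that of Clec14a, Rbp7 and S1pr1 was found for 99.8%, 99.5% and 99.5% of genes, a standing that the choice of these 3 largely fixes. The same share was 62.9% for Kdr, 46.9% for Eng, 12.7% for Tek and 2.53% for Pecam1. For scale, 32 genes known mainly from eye, pituitary, brain, testis, heart or pancreas had a median spread of 0.24 and a highest of 0.50. One of them, the glial gene Gfap, is also a marker of stellate cells.

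Further endothelial genes were read from lists of 37 general and 20 sinusoidal markers that hold none of the 8, of which 52 were measured. At day 8, 3 were higher and 6 lower in sandwich cultures and 43 did not pass, beside 11.9% and 15.6% of all probe sets. The split was 4 higher and 4 lower with arrays centred on their median, 3 and 2 with probe sets above the median level only, and 2 and 3 without replicate 1 of every group. Their median difference was 0.03, against 0.00 over all genes. Mean levels per array over the 52 genes were 5.47 to 5.52 in sandwich and 5.46 in all 3 monolayer arrays. On the earlier days fewer were called: 0 higher and 1 lower at day 1 (0.573% and 1.20% of all probe sets), 1 higher and 2 lower at day 2 (1.87% and 3.96%), and 1 higher and 4 lower at day 3 (7.70% and 8.84%).

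The 3 higher genes were sinusoidal markers. Fcgr2b, an inhibitory Fc receptor that macrophages and B cells also carry, measured 6.80, 6.96 and 6.72 in sandwich and 4.26, 4.78 and 4.30 in monolayer cultures at day 8, 2.38 ± 0.18 apart (SE, limma adjusted p = 1.1e-10). Its cultures overlapped at day 1, and day 8 minus day 1 was -2.59 in monolayer cultures, so its gap accompanied a lower monolayer level. Bmp2, a ligand that sinusoidal cells send to hepatocytes to control iron, was 0.91 ± 0.12 higher (limma adjusted p = 1.08e-06), after it had been lower in sandwich cultures at day 3 (-0.53, adjusted p = 0.00164). Ehd3, a membrane-trafficking protein, was 0.38 higher and lost its call without replicate 1 of every group (0.24).

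The 6 lower genes were Ramp2, an adrenomedullin co-receptor (-0.88 ± 0.14, SE), the junction protein Esam (-0.87 ± 0.11), the mannose receptor Mrc1 (-0.45), the VEGF co-receptor Nrp1 (-0.42), the transcription factor Sox7 (-0.37) and the lymphatic VEGF receptor Flt4 (-0.29). The calls of Mrc1 and Flt4 were lost in 10 of 17 and 9 of 16 alternatives. Sox7 lost its call without monolayer replicate 1 of day 8 (-0.31) and Nrp1 without monolayer replicate 2 (-0.28). Genes as closely tied to endothelium as Vwf (0.09), Tie1 (0.21), Flt1 (0.26), Stab2 (-0.08) and Lyve1 (-0.13) did not pass.

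Over time, 7 of the 52 genes were higher at day 8 than at day 1 in sandwich cultures and 0 lower, beside 11.6% and 13.2% of all probe sets. In monolayer cultures 13 were higher and 1 lower, beside 15.0% and 15.8% of all probe sets and 30.8% in either direction. Of the 14217 genes, 2029 were higher and 2483 lower in sandwich cultures, and 2483 higher and 3012 lower in monolayer cultures. Maf, a transcription factor of sinusoidal cells and of macrophages, was higher at day 8 by 2.74 in sandwich and 2.30 in monolayer cultures, and Mrc1 by 1.44 and 1.54. The others called in sandwich cultures were Procr (1.95), Cd36 (1.84), Bmp2 (0.73), Ehd3 (0.57) and the VEGF receptor Flt1 (0.47, limma adjusted p = 0.00646). Procr, Cd36 and Ehd3 were called higher in monolayer cultures as well, and Bmp2 and Flt1 were not.

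**Figure D4:**
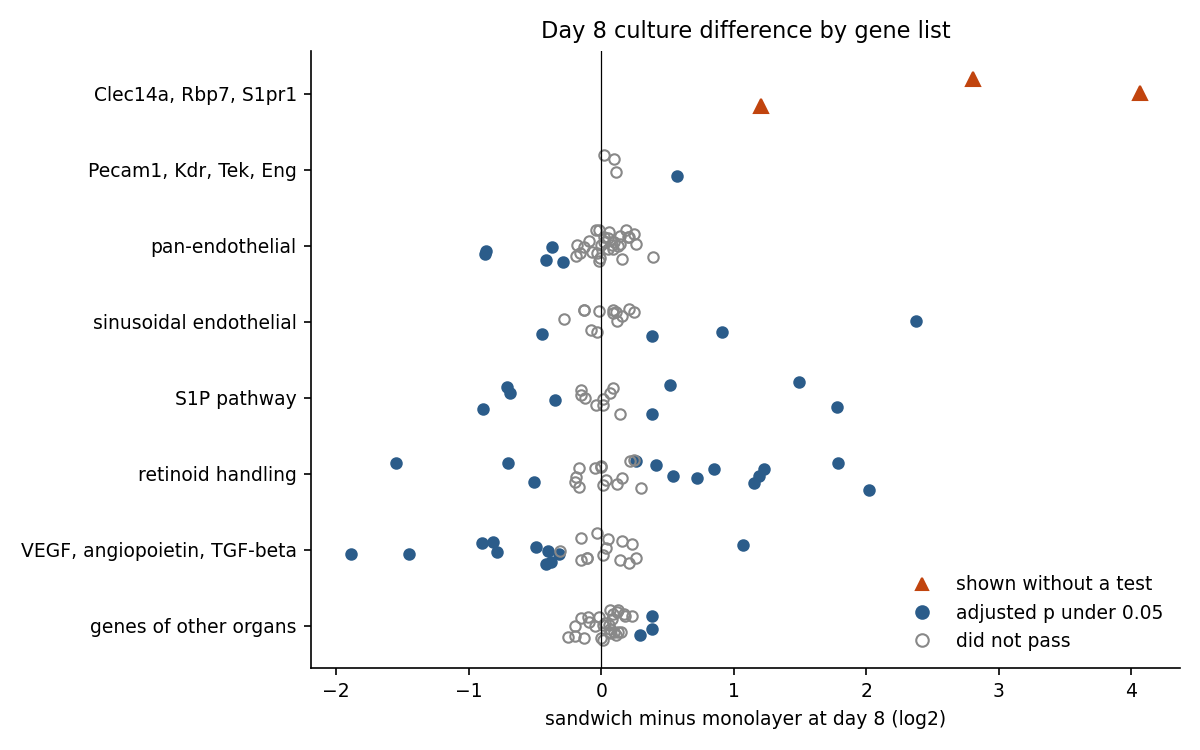
Sandwich minus monolayer at day 8 (horizontal axis, log2) for each measured gene of 8 sets (rows); triangles are genes shown without a test, filled points passed the test and open points did not. In the endothelial rows the values farthest to the right are Clec14a at 4.07, Rbp7 at 2.81, Fcgr2b at 2.38, S1pr1 at 1.21 and Bmp2 at 0.91.

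The family of Clec14a gave 0 calls between the cultures. Its group XIV relatives Cd93, Thbd and Cd248 and its extracellular ligand Mmrn2 had differences of 0.00, -0.16, 0.28 and 0.05 at day 8. Of the 4, 0 passed limma on days 1, 2, 3 and 8, beside 1.78%, 5.83%, 16.5% and 27.5% of all probe sets. With so few genes, 0 calls do not set the family apart from these shares. At an unadjusted p under 0.05, 1 gene was higher in sandwich cultures at each of days 2, 3 and 8 and 0 at day 1. The share of all probe sets at that threshold is not given.

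Around S1pr1, 17 genes of sphingosine 1-phosphate signalling and turnover were measured, of which 4 were higher and 4 lower in sandwich cultures at day 8, beside 11.9% and 15.6% of all probe sets, with a median of 0.01. Apom, the plasma carrier of the lipid made by hepatocytes, was higher by 1.78 ± 0.13 (limma adjusted p = 5.69e-11) and already by 1.42 at day 3. Plpp3, a lipid phosphatase that degrades it at the cell surface, was higher by 1.49 ± 0.20. The kinase Sphk1, which makes the lipid, was lower (-0.69 ± 0.18), as were the lyase Sgpl1, which destroys it (-0.71 ± 0.11), and the ceramidase Asah1, which supplies sphingosine (-0.89 ± 0.12). The sister receptor S1pr2 was lower in sandwich cultures at day 1 (-0.63), day 2 (-0.58) and day 3 (-0.43), with limma adjusted p of 0.0112, 0.00766 and 0.0279, and differed by 0.01 at day 8, which did not pass. S1pr3 differed by -0.04 at day 8 and did not pass on any of the 4 days.

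Around Rbp7, 27 genes of retinoid handling were measured, with 10 higher and 3 lower at day 8, beside 11.9% and 15.6% of all probe sets, and a median of 0.16. Rarb, a retinoic acid receptor whose gene is itself induced by retinoic acid, measured 9.18, 9.34 and 9.16 in sandwich and 7.03, 7.50 and 7.09 in monolayer cultures, 2.02 ± 0.10 apart (SE, limma adjusted p = 1.05e-13). Its difference was 0.11 at day 1, 0.49 at day 2 and 1.12 at day 3. Rbp4, the hepatocyte's secreted retinol carrier, was higher by 1.79 ± 0.15, and Aldh1a1, an enzyme that makes retinoic acid, was lower (-1.55 ± 0.09) after having been higher at day 3 (0.33, limma adjusted p = 0.0114). Rbp2, the intestinal relative of Rbp7, differed by -0.05 and did not pass.

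Of 25 measured ligands, receptors and targets of the VEGF, angiopoietin and TGF-beta families, 1 was higher and 10 lower at day 8, beside 11.9% and 15.6% of all probe sets, with a median of -0.15. The higher one was Vegfa, the ligand of Kdr, at 8.70, 8.73 and 8.33 in sandwich and 7.46, 7.59 and 7.49 in monolayer cultures, 1.07 ± 0.12 apart (SE, limma adjusted p = 1.61e-07). Its monolayer means were 8.66, 8.39, 8.03 and 7.51 at days 1, 2, 3 and 8, and its sandwich means 8.90, 8.65, 8.75 and 8.59. Among the lower ones were the ligand Tgfb3 (-1.89), the BMP target Id3 (-1.45) and the receptor Tgfbr1 (-0.79). Angpt1, the ligand of Tek, differed by -0.03.

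Markers of other liver cells moved with the day. At day 3, when Clec14a, Rbp7 and S1pr1 each stood over 2 above monolayer cultures, 10 of 13 macrophage markers were higher in sandwich cultures and 0 lower, beside 7.70% and 8.84% of all probe sets. Their mean level per array was 6.70 to 6.77 in sandwich and 6.15 to 6.22 in monolayer cultures. At day 8, with Clec14a and Rbp7 at their widest gap, 2 of the 13 were higher and 2 lower, beside 11.9% and 15.6%, and the mean levels overlapped at 6.44 to 6.62 in sandwich and 6.44 to 6.56 in monolayer cultures. Of 10 measured lymphocyte markers, 0 passed limma on days 1, 2, 3 and 8, beside 1.78%, 5.83%, 16.5% and 27.5% of all probe sets. At an unadjusted p under 0.05 (share of all probe sets not given), 2 lymphocyte markers passed at day 3, 2 at day 8 and 0 before. The part of these cells in the differences was not tested.

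The genes most like each of the 3 over the 8 group means were found by the root mean square difference of centred profiles, among genes with a spread of at least 1. For Clec14a they were Cyp17a1, a steroid hydroxylase (0.33), Ugt2b1, a glucuronosyltransferase (0.44), Pglyrp1, a peptidoglycan-binding protein (0.50), and Got1, a cytosolic aminotransferase (0.52). For Rbp7 they were Uroc1, an enzyme of histidine breakdown (0.41), the cytochrome P450 Cyp4f4 (0.43), the plasma glycoprotein Azgp1 (0.44) and Got1 (0.46). For S1pr1 they were the liver pyruvate kinase Pklr (0.35), plasma prekallikrein Klkb1 (0.42), the acyl-CoA synthetase Acsm1 (0.42) and the RNA-editing enzyme Apobec1 (0.43). None of the 52 endothelial list genes was among them, but only 8 of the 52 had a spread of at least 1 and could be picked. The same measure was 0.74 between Clec14a and Rbp7, 1.29 between Rbp7 and S1pr1 and 1.75 between Clec14a and S1pr1; the 4 nearest genes were picked from all candidates for their closeness, so the values are a description.

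**Figure D5:**
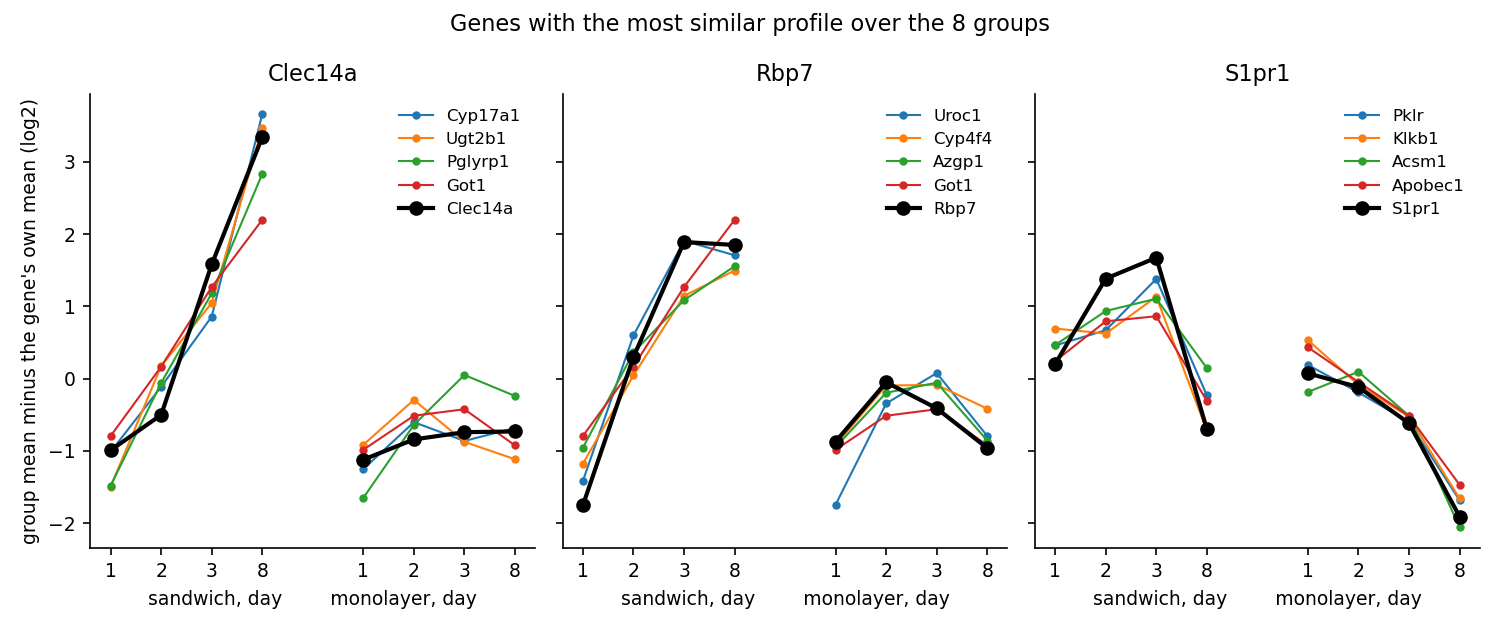
Group mean minus the gene's own mean over the 8 groups (vertical axis, log2) by culture and day (horizontal axis) for Clec14a, Rbp7 and S1pr1 (thick black) and the 4 genes nearest to each (thin). Clec14a climbs to day 8 in sandwich cultures, Rbp7 levels off between days 3 and 8, and S1pr1 peaks at day 3; the likeness of the thin lines follows from how they were picked.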

How the data were processed

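The deposited table holds log2 probe set levels of 24 Affymetrix arrays. RMA and limma are named in the submitters' processing notes, with no role or version; the values were used as deposited. Of 31099 probe sets, 57 controls were left out. Of the 31042 tested, 20826 carry 1 gene symbol in the platform annotation, 436 several and 9780 none; a gene was read by its probe set with the highest mean. With no detection calls, precision is limited by 3 arrays per group.

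All arrays entered a single fit of 8 group means by limma 3.58.1 in R 4.3.3, tested on simulated data; p-values were adjusted by Benjamini-Hochberg over all probe sets in each comparison, two-sided, and called below 0.05. The 8 genes, the gene lists and the tests were chosen with earlier results of these data known. Named genes are the 8, the 3 of each list with the smallest adjusted p at day 8, a set of genes given whatever their values, and the 4 nearest profiles. The endothelial list genes called between the cultures at day 8 or in the difference between the changes, and Maf, were added after their values were seen.

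Replicate numbers were checked for pairing. Deviations of arrays with the same number correlated between -0.433 and 0.534 over 84 pairs, and 56 of these exceeded 0.1. With different numbers 37 of 168 did, and the medians were 0.204 and -0.127, so the numbers share some structure across groups. Between the cultures of the same day, 6 of 12 pairs exceeded 0.1. The labels do not say what the numbers stand for. The main fit left them unpaired, and a replicate block is given as an alternative, in which Rbp7 and Eng at day 1 passed. Alternatives were a replicate block, left-out replicates, 2 rescalings, a filter on level, array weights, a trended prior, only the groups compared and the mean of probe sets.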

Additional observations from a re-analysis of the deposited data

Results flagged for a closer look

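Rbp7 had sandwich arrays all below monolayer arrays at day 1 (9.69% of all probe sets) and all above them at day 8 (18.3%). Its change between days 1 and 8 differed between the cultures by 3.69, a difference that was not tested because the gene was chosen on these values.

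For the genes below, the change between days 1 and 8 differed between sandwich and monolayer cultures by the test of that difference itself (limma, adjusted over all probe sets; values are the sandwich change minus the monolayer change). It was 0.74 for Kdr (adjusted p = 0.0122), 2.25 for Fcgr2b (3.42e-07), 1.12 for the fatty acid receptor Cd36 (4.72e-06), 1.08 for the protein C receptor Procr (0.01) and 0.64 for Bmp2 (0.00786). It was -1.05 for Esam (1.49e-05), -0.96 for Ramp2 (0.000798), -0.54 for Sox7 (0.0161) and -0.45 for Flt4 (0.0438). For Cd36 the day 8 level was above day 1 in both cultures, by 1.84 in sandwich and 0.72 in monolayer cultures, and for Procr likewise by 1.95 and 0.87. The cultures themselves did not pass at day 8 for Cd36 (0.21) or Procr (0.39), while Cd36 was lower in sandwich cultures at day 1 (-0.91) and Procr at days 2 and 3 (-1.07 and -1.20). For Esam and Ramp2 the monolayer change was 1.26 and 1.00.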

How the results depend on the processing

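The 3 genes chosen for their rise kept their direction at days 3 and 8 under all alternatives run. They were chosen on these same arrays, so this outcome was largely fixed and lends their rise no support. Among 996 values of 58 single-gene results under alternatives, 934 kept their side of the threshold or stayed within the spread between arrays, 41 lost a call, 5 gained one, 13 moved by over that spread and 3 reversed. Of the 934, 37 were differences not called that changed sign. The reversed values were Rbp7 at day 2 (-0.05 without replicate 3, with a range to 0.88 over the fits that left out arrays) and Rbp7 at day 8 minus day 1 in monolayer cultures (0.00 without monolayer day 1 replicate 1, 0.11 without monolayer day 8 replicate 3, with a range of -0.27 to 0.11). The cause was not tested. Leaving out single arrays was added after seeing the data.

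The number of probe sets called between the cultures was 933 at day 1 and 3688 at day 2 with array weights, against 552 and 1809. Leaving out replicates or arrays gave 150 to 465 at day 1, 846 to 1486 at day 2, 3281 to 4641 at day 3 and 6017 to 7942 at day 8. It gave 5403 to 6896 for day 8 minus day 1 in sandwich cultures, 7151 to 8765 in monolayer cultures and 2936 to 4621 for the difference between the changes, where fewer arrays were fitted.

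Of the 52 endothelial list genes, those called at day 1 numbered 2 with the replicate block, with array weights and with only the groups compared, against 1. With probe sets above the median level only, which tests fewer genes, 5 were called at day 8 (against 9), 7 for day 8 minus day 1 in monolayer cultures (against 14) and 5 for the difference between the changes (against 8). Leaving out replicates or arrays gave 1 to 2 at day 1, 2 to 3 at day 2, 3 to 6 at day 3, 5 to 10 at day 8, 6 to 9 and 9 to 14 over time in sandwich and monolayer cultures, and 5 to 9 for the difference between the changes. With the replicate block, which rests on shared numbers only, Rbp7 at day 1 (-0.88, adjusted p = 0.0127) and Eng at day 1 (0.34, adjusted p = 0.041) passed, and the endothelial count at day 8 was 9 as without it. Over all pairs of the same number the median correlation of deviations was 0.204, against -0.127 for different numbers.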

Other observations

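Markers of further liver cell types and of organs outside the liver give the setting of these values at day 8 (limma, adjusted p), when 11.9% of all probe sets were higher and 15.6% lower. Among 10 measured cholangiocyte markers, 0 were higher and 6 lower in sandwich cultures, among them Cd24 (-4.68), Krt7 (-3.22) and Krt19 (-3.19). Among 15 stellate cell markers, 1 was higher and 4 lower: Rgs5, a regulator of G protein signalling in pericytes, was higher by 1.84 ± 0.11, and the intermediate filament gene Vim (-2.34 ± 0.15) and Reln (-0.55) were lower. The hepatocyte bile acid transporter Slc10a1 was higher by 3.63, Cyp2e1 by 2.12 and Cps1 by 2.06. Of 13 macrophage markers, Cd14 was higher by 0.98, and Cd68 (-0.71) and Lyz2 (-0.49) were lower; Cd68 had been higher at day 3 (0.65). Of 10 lymphocyte markers, the 3 with the smallest adjusted p were Nkg7 (0.25), Cd5 (0.28) and Lck (-0.17), and they did not pass. Of 32 genes of other organs, 3 were higher and 0 lower: Lhb and Pvalb by 0.38 each and Avp by 0.29.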
